A study of Mus musculus with 6 samples.

Results

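The genes described here encode proteins that raise, lower or read cytosolic calcium, together with the S100 and annexin families of calcium-binding proteins. Members were taken by symbol from the deposited gene table: inositol trisphosphate (IP3) and ryanodine receptors, calcium pumps of the Atp2a, Atp2b and Atp2c groups, Stim and Orai genes, Trpc and Trpv names, calmodulins, names beginning with Camk, phospholipases C beta and gamma, and names beginning with S100 or Anxa. This gave 57 of 12491 protein-coding genes. They comprised 12 S100 names, 9 annexins, 9 store release and pump genes, 9 calcium entry names, 6 phospholipases C and 12 calmodulin and calmodulin kinase names. S100pbp, Trpc4ap, Camkmt, Camk2n1 and Camk2n2 match by name, but their products are binding partners, modifiers or inhibitors and not members of the families they are named after.

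RNA-seq of poly(A) RNA was performed on lacrimal glands (LG) of male C57BL/6 mice, with 3 libraries of T2DM mice and 3 libraries of vehicle mice. T2DM mice were fed a high-fat diet and injected with streptozotocin, a toxin of pancreatic beta cells. Vehicle mice, called counterparts in the labels, received a normal diet and the citrate buffer alone. No allele or transgene was named for either group. The labels give an age of 24 weeks for both groups and also a time of 24 weeks after treatment for T2DM mice. In the paper, a period of high-fat diet and then the injections came before these 24 weeks. By that account T2DM mice were older than 24 weeks, which the labelled age does not match, so the exact age at collection is not certain. Diet and toxin differed between the groups together and cannot be told apart. It was not stated if the RNA of a library was from a single mouse or from a pool. A p-value therefore reflects the variation among the 6 libraries, and part of that may be technical. Read depth is unknown, since the deposited values are normalised.

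In LG acinar cells, acetylcholine and noradrenaline act on Gq-coupled receptors. Phospholipase C beta then produces IP3, which opens IP3 receptors of the endoplasmic reticulum. STIM proteins sense emptied stores and open ORAI channels of the plasma membrane, and SERCA (Atp2a) and PMCA (Atp2b) pumps return calcium to the stores or move it out of the cell. The calcium rise opens chloride and potassium channels that drive fluid secretion, and it triggers the release of protein granules. Calmodulin passes the signal on to kinases and to calcineurin. S100 proteins are small EF-hand calcium sensors that bind partner proteins, annexins among them, and some are released by myeloid cells as inflammatory signals. Annexins bind negatively charged membranes when calcium rises and take part in exocytosis, membrane repair and the resolution of inflammation.

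Promoter windows are printed for 4 genes that the results return to, S100a11, Anxa2, Anxa1 and S100a13. The RefSeq windows of GRCm38.p6 span 250 bases before to 50 bases after a gene's start and were found for 47 of the 57 genes, including 11 of the 13 called higher below. Both strands were searched for TGANTCA (AP-1), CACGTG (E-box), TTCNNNGAA (STAT) and TGACGTCA (CRE), and matches are in capitals. S100a11 (chr3:93520246-93520545, plus strand), the most abundant S100 transcript, held an E-box match and 2 AP-1 matches. Anxa2 (chr9:69453433-69453732, plus strand) held 1 AP-1 match. Anxa1 (chr19:20390622-20390921, minus strand), the member with the largest difference, held none of the 4 motifs, and its RefSeq start lies 273 bases from the start of the deposited gene model. S100a13 (chr3:90514185-90514484, plus strand), also without a match, is read away from the divergent gene S100a1, and 42 bases separate the deposited models of these genes.
S100a11: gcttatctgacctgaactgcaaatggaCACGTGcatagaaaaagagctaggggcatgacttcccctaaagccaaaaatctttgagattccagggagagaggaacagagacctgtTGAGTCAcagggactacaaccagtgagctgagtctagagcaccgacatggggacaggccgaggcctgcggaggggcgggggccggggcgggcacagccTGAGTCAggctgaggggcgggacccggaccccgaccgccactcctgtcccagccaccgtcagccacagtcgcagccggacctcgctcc
Anxa2: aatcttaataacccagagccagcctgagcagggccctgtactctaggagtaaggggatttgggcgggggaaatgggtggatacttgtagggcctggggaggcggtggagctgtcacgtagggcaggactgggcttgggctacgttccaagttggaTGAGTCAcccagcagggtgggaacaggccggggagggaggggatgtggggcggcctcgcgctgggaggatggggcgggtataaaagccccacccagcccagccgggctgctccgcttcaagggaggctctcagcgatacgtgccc
Anxa1: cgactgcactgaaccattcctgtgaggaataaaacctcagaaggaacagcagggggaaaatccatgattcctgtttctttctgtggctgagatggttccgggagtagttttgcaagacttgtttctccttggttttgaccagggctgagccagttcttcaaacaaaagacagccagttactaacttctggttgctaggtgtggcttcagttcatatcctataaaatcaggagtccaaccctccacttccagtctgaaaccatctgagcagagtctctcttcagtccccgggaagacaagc
S100a13: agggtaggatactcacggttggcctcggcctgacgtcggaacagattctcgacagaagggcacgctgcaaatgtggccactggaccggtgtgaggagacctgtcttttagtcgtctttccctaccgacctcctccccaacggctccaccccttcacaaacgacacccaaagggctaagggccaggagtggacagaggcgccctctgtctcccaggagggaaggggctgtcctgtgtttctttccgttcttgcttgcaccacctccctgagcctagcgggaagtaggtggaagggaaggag
An AP-1 match was present in 3 of 47 windows (S100a11, Anxa2 and Plcb3), or 6.38%, against 7.81% of all 32817 windows. E-box matches were found in 6 windows (12.8%, against 7.15% of all windows), STAT matches in 3 windows (6.38%, against 8.29%) and CRE matches in 0 windows (against 1.79%). The median GC content was 61.7% for the members' windows and 52.7% for all windows. Each member had 1 window, the nearest to its deposited start. All windows could include several of a gene and genes outside the deposited table, so the shares are not strictly like for like.

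Of the 57 genes, 13 were higher in T2DM glands, none was lower and 41 did not pass the test. The remaining 3, S100b, Ryr2 and Camkk1, were not tested, as neither group mean reached 0.5 FPKM. FPKM scale the fragments of a gene to its exon length and to all mapped fragments of the library, so levels of different genes are set side by side per length. A gene was called at a Benjamini-Hochberg adjusted p under 0.05 in limma on log2(FPKM + 1) over 12135 genes. A log2 fold change is T2DM minus vehicle on that scale, which understates the change of low genes, whereas printed levels and their means are in FPKM. The 13 genes were 24.1% of the 54 tested, against 10.5% of all tested genes called higher and 1.7% called lower. At an unadjusted p under 0.05, 33 members were higher and 0 were lower, against 28.5% and 4.57% of all genes tested. The median log2 fold change of the members was 0.37 (range -0.01 to 1.54), against 0.16 for all genes tested, and 52 of the 54 values were positive. All T2DM libraries lay above all vehicle libraries for 32 of the 54 and below them for 0, against 33.8% and 6.1% of all genes tested.

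The size of these differences depended on how the libraries were scaled to each other. The deposited FPKM of most genes were somewhat higher in the T2DM libraries, and dividing each library by its median ratio to the across-library geometric mean moved the median log2 fold change of all genes to 0.00. After that scaling 4 members were called higher (Anxa1, Anxa4, Atp2a3 and Itpr2) and 0 lower, with 15 higher and 1 lower at an unadjusted p under 0.05. All genes then split into 3.93% called higher and 3.96% called lower, and into 13.9% higher and 13% lower at an unadjusted p under 0.05. The members' median was 0.20 after scaling, with 45 of 54 values above 0. The count also rested on single libraries: it was 3 without T2DM replicate 1, 7 without T2DM replicate 2, 13 without T2DM replicate 3 (9 of them among the original 13), 4 without Vehicle replicate 1, 1 without Vehicle replicate 2 and 0 without Vehicle replicate 3, where 24 members had an unadjusted p under 0.05 in limma. The calls over all genes fell as well, with 260, 760, 886, 464, 203 and 25 genes higher in these fits in the same order, against 1271 with all libraries.

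**Figure D1:**
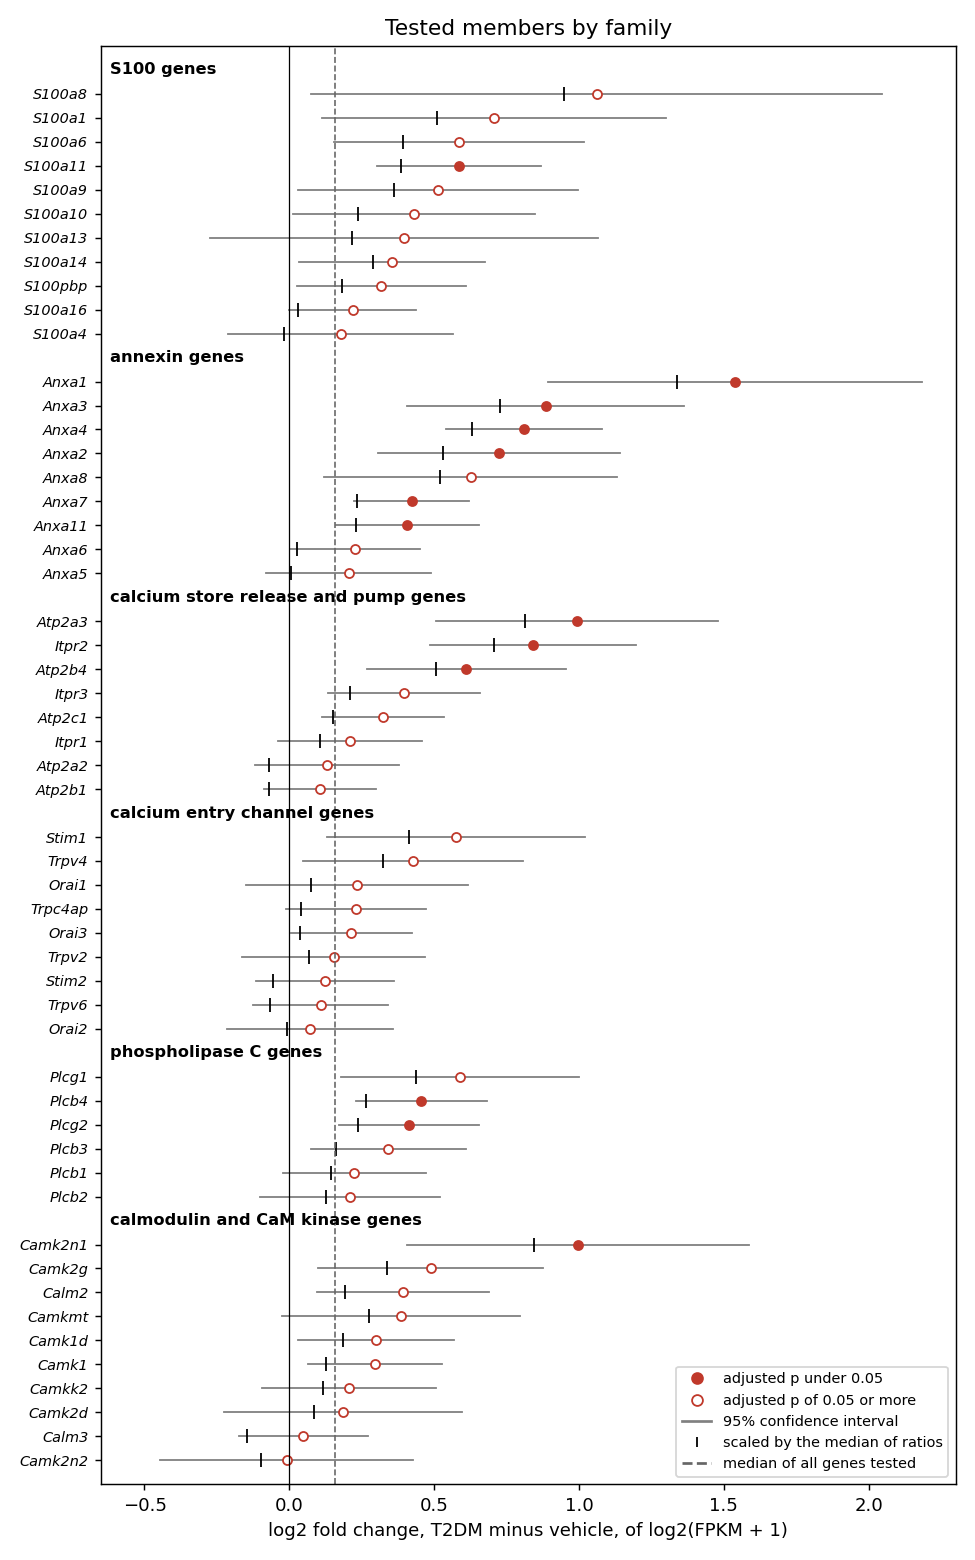
Log2 fold change (T2DM minus vehicle, of log2(FPKM + 1)) of tested genes by family, 3 libraries in each group. Circles are the fitted values with 95% confidence intervals, filled where the adjusted p is under 0.05, ticks show the values of the scaled libraries, and the dashed line is the median of all genes tested (0.16). The filled circles number 6 of 9 among annexins and 0 of 9 among calcium entry names.

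Each library differed from the others in ways that touch the results below. T2DM replicate 1 had the highest value of its group for 34 of the 54 genes and for 54.2% of all genes tested. Vehicle replicate 1 carried transcripts of the salivary type, such as Bpifa2 at 1127 FPKM against 4.38 and 2.03 FPKM in the other vehicle libraries. The summed level of the 8 listed salivary genes did not set it apart, at 17133 FPKM against 14282 and 18457 FPKM. Its summed macrophage and monocyte markers were 271 FPKM against 551 and 474 FPKM in the other vehicle libraries, and 11 of the 13 rows were lowest in it. The share of all genes lowest in it was not determined. T2DM replicate 3 carried low levels of muscle transcripts, with Myl2 at 4.48 FPKM. LG acinar markers were present in every library, with a summed level of 69212 to 85525 FPKM in T2DM glands and 74025 to 78864 FPKM in vehicle glands over 11 genes. Most of this sum was Obp1a, with 62649 to 78388 FPKM in T2DM glands and 66236 to 71398 FPKM in vehicle glands. Of the 11, 1 was called higher (Slc12a2) and 2 lower (Lcn11 and Lpo). After scaling, 1 was higher and 3 were lower, with Bhlha15 added (-0.49, adjusted p = 0.0452 in limma). Over all genes tested, 10.5% were called higher and 1.7% lower, and 3.93% and 3.96% after scaling. All 13 duct markers had every T2DM library above every vehicle library (33.8% of all genes tested) and were highest in T2DM replicate 1. Of the 13, 8 were called higher (10.5% of all genes tested), and 6 after scaling (3.93% of all genes tested). In these bulk samples fewer cells of a type and less RNA per cell cannot be told apart.

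Phospholipases C stand at the start of the pathway, and 2 of the 6 were higher in T2DM glands (33.3%, against 10.5% of all genes tested). Plcb4, a beta isoform that Gq proteins activate, was the most abundant, with 20.6, 17.8 and 20.5 FPKM in T2DM glands and 15.1, 13.9 and 13.1 FPKM in vehicle glands. The groups did not overlap, and the log2 fold change was 0.46 (SE 0.10, adjusted p = 0.0312). Plcg2, a gamma isoform that tyrosine kinase pathways activate and that is best known from B cells and myeloid cells, had 8.44, 6.68 and 7.40 FPKM in T2DM glands against 5.11, 5.50 and 5.49 FPKM in vehicle glands. Its log2 fold change was 0.41 (SE 0.10, adjusted p = 0.0434). Of 10 T and B cell markers, 2 were also called higher, Cd79a (log2 fold change 0.98, adjusted p = 0.0354) and Cd79b (0.94, adjusted p = 0.0152), and Cd79b kept its call after scaling. The summed markers were 300.01, 377 and 307 FPKM in T2DM glands and 255, 265 and 170.1 FPKM in vehicle glands. They were highest in T2DM replicate 2, where Plcg2 was lowest within its group. In vehicle glands they were lowest in replicate 3, and Plcg2 was lowest in replicate 1. Their part in the Plcg2 difference was not tested. Plcb3, the second beta isoform by level, had 10.1, 7.93 and 8.48 FPKM in T2DM glands against 6.78, 7.35 and 6.13 FPKM in vehicle glands, a difference that did not pass the test (log2 fold change 0.34, SE 0.12, adjusted p = 0.0889). Plcg1 (log2 fold change 0.59), Plcb1 (0.23) and Plcb2 (0.21) also missed the threshold. Summed over the 6 genes, T2DM glands held 45.7, 37.8 and 41.3 FPKM and vehicle glands held 31.0, 30.6 and 27.3 FPKM. The family's count was 0 after scaling, and 0, 2 and 0 without T2DM replicates 1, 2 and 3, and 1, 0 and 0 without Vehicle replicates 1, 2 and 3. The median log2 fold change of the family was 0.38, with 4 of 6 genes higher at an unadjusted p under 0.05 (28.5% of all genes tested).

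Among store release and pump genes, 3 of the 8 tested were higher (37.5%, against 10.5% of all genes tested). There was 1 of each kind: an IP3 receptor, a SERCA pump and a PMCA pump. Itpr2 (GRCm38, chr6:146108299-146502223), the IP3 receptor isoform with the highest affinity for IP3, had 4.13, 2.59 and 2.57 FPKM in T2DM glands and 1.22, 1.22 and 1.33 FPKM in vehicle glands. T2DM replicate 1 stood above the other T2DM libraries, which lay close together, and the vehicle libraries hardly differed. The mean was 2.47 times as high, with a log2 fold change of 0.84 (SE 0.15, adjusted p = 0.0225). Itpr3, the most abundant IP3 receptor here and the one placed at the apical pole of exocrine acinar cells, had 15.2, 11.5 and 12.9 FPKM in T2DM glands against 10.3, 9.71 and 9.27 FPKM in vehicle glands. Its groups did not overlap, but the log2 fold change of 0.40 (SE 0.11) had an adjusted p of 0.0581. The ratio of Itpr2 to Itpr3 was 0.271, 0.225 and 0.199 in T2DM glands and 0.118, 0.126 and 0.143 in vehicle glands. Itpr1, the isoform best known from neurons, had 1.38, 1.04 and 1.12 FPKM in T2DM glands against 0.940, 0.800 and 0.902 FPKM in vehicle glands and did not pass the test (adjusted p = 0.209).

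Of the pumps that refill the store, Atp2a3 was called and Atp2a2 was not. Atp2a3 (GRCm38, chr11:72961169-72993044) encodes SERCA3, a low-affinity store pump of epithelial, endothelial and blood cells. It had 16.3, 8.89 and 10.4 FPKM in T2DM glands and 6.45, 4.83 and 4.71 FPKM in vehicle glands, with T2DM replicate 1 the highest and no overlap between the groups. The log2 fold change was 0.99 (SE 0.21, adjusted p = 0.0304). Atp2a2, which encodes the housekeeping pump SERCA2 and held the largest part of the family's summed FPKM, had 53.2, 46.8 and 54.3 FPKM in T2DM glands against 51.1, 48.6 and 41.4 FPKM in vehicle glands. These values overlapped, and the log2 fold change of 0.13 (95% CI -0.12 to 0.38, adjusted p = 0.422) became -0.07 after scaling. The ratio of Atp2a3 to Atp2a2 was 0.306, 0.190 and 0.192 in T2DM glands, above the 0.126, 0.0994 and 0.114 of vehicle glands.

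Pumps of the plasma membrane and the Golgi apparatus gave 1 further call. Atp2b4, which encodes the PMCA4 pump of the plasma membrane, had 2.01, 1.22 and 1.24 FPKM in T2DM glands and 0.497, 0.771 and 0.586 FPKM in vehicle glands, with a log2 fold change of 0.61 (SE 0.15, adjusted p = 0.0399). Atp2b1, the widely expressed PMCA1, was several times more abundant and differed little, at 6.87, 6.49 and 6.51 FPKM in T2DM glands against 6.23, 5.92 and 6.11 FPKM in vehicle glands. Its log2 fold change of 0.11 (adjusted p = 0.404) was -0.07 after scaling. Atp2c1, a pump that loads the Golgi apparatus with calcium and manganese, had 6.39, 6.87 and 5.99 FPKM in T2DM glands against 5.01, 4.72 and 5.03 FPKM in vehicle glands (adjusted p = 0.0568). Ryr2, a ryanodine receptor known from heart muscle, was low and untested, with 0.262, 0.230 and 0.296 FPKM in T2DM glands and 0.329, 0.363 and 0.360 FPKM in vehicle glands. It was the only one of the 57 genes with every T2DM library below every vehicle library.

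The family sum of 105.7, 85.7 and 95.4 FPKM in T2DM glands against 82.0, 76.9 and 69.7 FPKM in vehicle glands had Atp2a2 as its largest part in every library. Of the 3 calls, Itpr2 and Atp2a3 held after scaling, with log2 fold changes of 0.70 and 0.81, and Atp2b4 did not (0.51, adjusted p = 0.0597). The number of calls in the family was 1, 2 and 2 without T2DM replicates 1, 2 and 3, and 1, 0 and 0 without Vehicle replicates 1, 2 and 3.

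None of the 9 calcium entry names was called in limma, against 10.5% of all genes tested called higher. At an unadjusted p under 0.05, 3 were higher, against 28.5% of all genes tested. The most abundant, Trpc4ap, encodes a ubiquitin ligase adaptor that also binds TRP channels and is not a channel itself. It had 15.2, 14.2 and 16.8 FPKM in T2DM glands against 13.8, 13.4 and 11.6 FPKM in vehicle glands (adjusted p = 0.165). Channels named Trpc were not analysed here. Stim1, the main sensor of store emptying, had 6.07, 5.19 and 4.16 FPKM in T2DM glands against 2.64, 2.47 and 4.38 FPKM in vehicle glands. The lowest T2DM library lay below the highest vehicle library, and the log2 fold change of 0.58 (SE 0.19) had an adjusted p of 0.0855. Stim2, which keeps resting calcium steady, had 8.02, 7.72 and 8.03 FPKM in T2DM glands and 6.87, 6.55 and 8.25 FPKM in vehicle glands. Its log2 fold change was 0.12 (95% CI -0.12 to 0.36, adjusted p = 0.426) and -0.06 after scaling.

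None of the ORAI pore subunits and vanilloid channels passed the test. Orai3 had 7.96, 8.18 and 8.93 FPKM in T2DM glands and 7.35, 7.19 and 6.65 FPKM in vehicle glands, without overlap (log2 fold change 0.21, SE 0.09, adjusted p = 0.145). Orai1, the main pore of store-operated entry, had 3.20, 4.41 and 4.68 FPKM in T2DM glands against 2.78, 4.23 and 3.04 FPKM in vehicle glands (95% CI of the log2 fold change -0.15 to 0.62). Orai2 was under 1 FPKM in every library. Of the vanilloid channels, Trpv6, a channel selective for calcium, had 6.08, 7.03 and 6.81 FPKM in T2DM glands against 5.49, 6.38 and 6.39 FPKM in vehicle glands (95% CI of the log2 fold change -0.13 to 0.34). Trpv4, an osmosensitive channel, had 1.89, 1.43 and 0.863 FPKM in T2DM glands against 0.691, 0.844 and 0.727 FPKM in vehicle glands (adjusted p = 0.117), and Trpv2 was near 1 FPKM with overlapping groups. The family median of 0.21 was close to the 0.16 of all genes tested, and without T2DM replicate 3 the count was 1 (Trpv4, log2 fold change 0.60).

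Calmodulin is encoded by several genes with the same protein product, and neither Calm2 nor Calm3 passed the test. Calm2, the most abundant, had 103, 113 and 88.6 FPKM in T2DM glands against 66.1, 80.0 and 85.2 FPKM in vehicle glands. The groups did not overlap, although T2DM replicate 3 and Vehicle replicate 3 lay close, and the log2 fold change of 0.39 (SE 0.13) had an adjusted p of 0.0817. The values of Calm3 overlapped, with 23.5, 22.4 and 22.8 FPKM in T2DM glands and 19.7, 22.7 and 24.2 FPKM in vehicle glands (log2 fold change 0.05, 95% CI -0.17 to 0.27, and -0.15 after scaling).

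Camk2n1 (GRCm38, chr4:138454314-138460123), which encodes an inhibitor of calmodulin kinase II, was the 1 gene of the 11 tested in this family called higher (9.09%, against 10.5% of all genes tested). It had 7.65, 3.60 and 3.46 FPKM in T2DM glands and 2.19, 1.89 and 1.42 FPKM in vehicle glands, with a log2 fold change of 0.997 (SE 0.25, adjusted p = 0.045). T2DM replicate 1 had more than the sum of the other T2DM libraries, and without it the log2 fold change was 0.69 and missed the threshold. The related inhibitor Camk2n2 lay between 0.384 and 1.09 FPKM over all libraries, with a log2 fold change of -0.01. The kinase subunits were low: Camk2g had 3.89, 3.72 and 4.02 FPKM in T2DM glands against 3.56, 1.96 and 2.11 FPKM in vehicle glands (adjusted p = 0.0913), and Camk2d overlapped between the groups. Camk1 had 6.40, 5.56 and 5.26 FPKM in T2DM glands against 4.46, 4.68 and 4.31 FPKM in vehicle glands (adjusted p = 0.0894), and its exons overlap those of Ogg1 on the opposite strand. Camk1d, Camkk2 and Camkmt, whose product methylates calmodulin, did not pass the test, and Camkk1 was not tested. The Camk2n1 call was also lost after scaling, without T2DM replicate 2 and without each of the vehicle libraries, and without Vehicle replicate 1 Camk2g was called instead (log2 fold change 0.68).

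**Figure D2:**
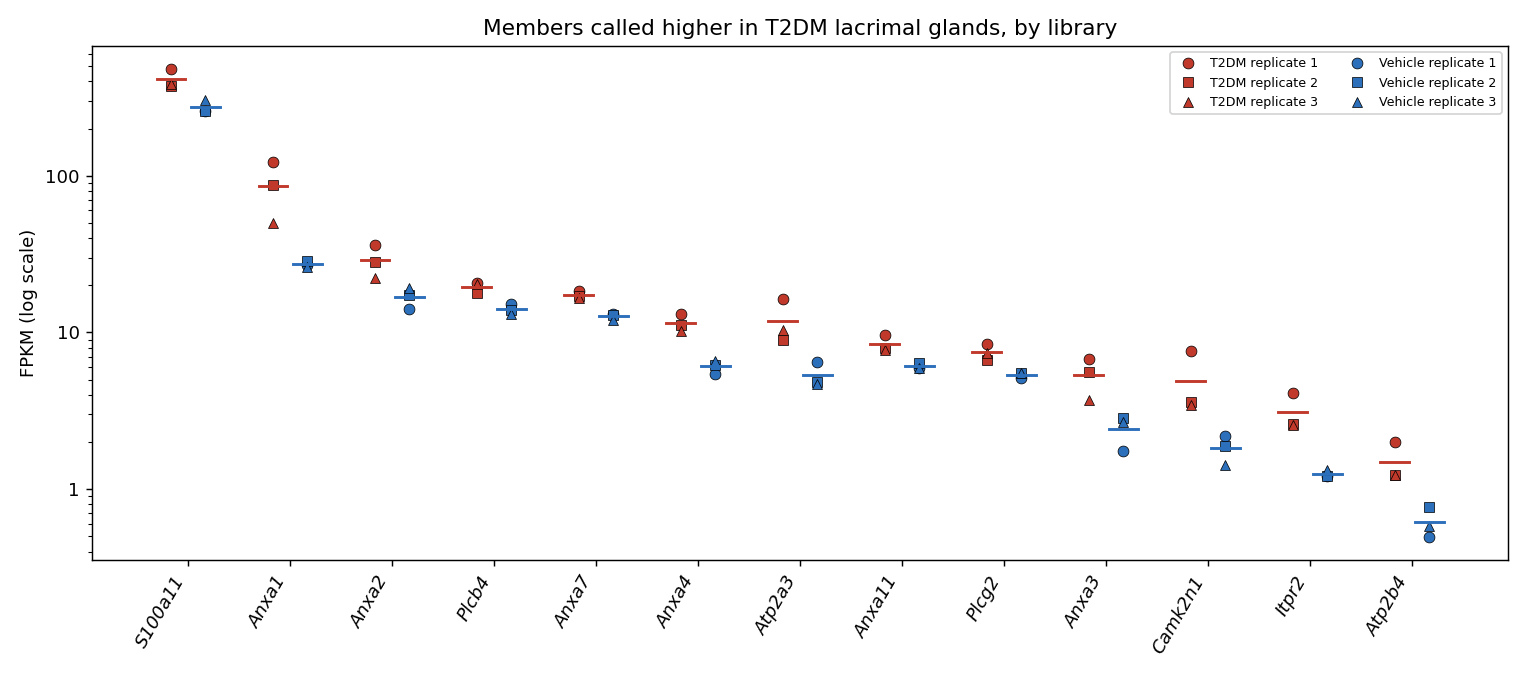
FPKM on a log scale of the 13 genes called higher, with 3 T2DM libraries (red, left) and 3 vehicle libraries (blue, right) for each gene, symbols for the replicate number and bars for the group mean. In all 13 genes the T2DM symbols lie above the vehicle symbols, and for Camk2n1, Itpr2, Atp2b4 and Atp2a3 T2DM replicate 1 stands above the other T2DM libraries.

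Before scaling, annexins had the largest share of calls of the 6 families. Of 9 genes, 6 (66.7%, against 10.5% of all genes tested) were higher in T2DM glands (Anxa1, Anxa2, Anxa3, Anxa4, Anxa7 and Anxa11), 0 were lower, and 8 were higher at an unadjusted p under 0.05 (28.5% of all genes tested). The median log2 fold change was 0.63, and 0.52 after scaling, where Anxa1 and Anxa4 kept their calls. Annexins no longer led then, since 2 of the 8 tested store release and pump genes were called as well. The summed annexin level was 345.8, 281.6 and 226.3 FPKM in T2DM glands against 171.0, 180.9 and 187.2 FPKM in vehicle glands.

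Anxa1 (GRCm38, chr19:20373428-20390944) encodes a protein that glucocorticoids induce and that acts through formyl peptide receptors to limit inflammation. It had the largest log2 fold change of the 54 tested genes. Its level was 121, 87.4 and 49.6 FPKM in T2DM glands and 27.1, 28.5 and 26.1 FPKM in vehicle glands. The vehicle libraries were nearly equal, and the T2DM libraries spanned more than a factor of 2 but all lay above them. The mean was 3.17 times as high (log2 fold change 1.54, SE 0.28, adjusted p = 0.0224). Anxa4 (GRCm38, chr6:86736840-86793584), expressed in ductal and other simple epithelia of several organs, had 13.1, 11.1 and 10.2 FPKM in T2DM glands against 5.46, 6.23 and 6.58 FPKM in vehicle glands. It had the smallest adjusted p of the members, 0.0157, with a log2 fold change of 0.81 (SE 0.12). Anxa3 had 6.81, 5.62 and 3.73 FPKM in T2DM glands and 1.75, 2.84 and 2.68 FPKM in vehicle glands (log2 fold change 0.89, SE 0.21, adjusted p = 0.0367). Anxa2, which joins with S100a10 at the plasma membrane and binds plasminogen activators there, had 36.1, 28.0 and 22.4 FPKM in T2DM glands against 14.1, 17.3 and 19.1 FPKM in vehicle glands (log2 fold change 0.72, SE 0.18, adjusted p = 0.0418). T2DM replicate 3 and Vehicle replicate 3 were close for Anxa2, although the groups did not overlap.

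Smaller differences were found in 2 further called annexins. Anxa7, known for calcium-dependent fusion of secretory granules, had 18.4, 17.0 and 16.5 FPKM in T2DM glands and 13.1, 12.8 and 12.1 FPKM in vehicle glands, with little spread in either group (log2 fold change 0.42, SE 0.09, adjusted p = 0.0278). Anxa11, which takes part in vesicle transport and binds ALG-2, had 9.62, 7.98 and 7.68 FPKM in T2DM glands against 5.90, 6.43 and 5.91 FPKM in vehicle glands (log2 fold change 0.41, SE 0.11, adjusted p = 0.0469). The abundant annexins Anxa5 and Anxa6 differed less. Anxa5, a phosphatidylserine-binding protein, had 78.4, 74.9 and 62.6 FPKM in T2DM glands against 55.0, 61.9 and 69.9 FPKM in vehicle glands, and these overlapped (log2 fold change 0.21, 95% CI -0.08 to 0.49, adjusted p = 0.277). Anxa6 had 59.3, 48.5 and 52.5 FPKM in T2DM glands against 47.8, 44.2 and 44.2 FPKM in vehicle glands (log2 fold change 0.23, adjusted p = 0.149). Both were close to 0 after scaling, at 0.01 and 0.03. Anxa8, a gene of stratified epithelium, had 2.68, 1.04 and 1.15 FPKM in T2DM glands against 0.736, 0.563 and 0.620 FPKM in vehicle glands (adjusted p = 0.0943). As a share of the summed annexins, Anxa5 made up 22.7%, 26.6% and 27.6% in T2DM glands and 32.2%, 34.2% and 37.4% in vehicle glands.

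Markers of ducts ranked the T2DM libraries in a similar order to the annexins. All 9 annexins and all 13 duct markers were highest in T2DM replicate 1, as were 54.2% of all genes tested. Among the T2DM libraries, 7 annexins and 8 duct markers were lowest in T2DM replicate 3, and the share over all genes was not determined. The vehicle libraries did not share an order: the summed annexins were lowest in Vehicle replicate 1 (171.0 FPKM), where the summed duct markers were highest (1279 FPKM). The summed duct markers were 2825, 2306 and 1739 FPKM in T2DM glands and 1279, 1157.5 and 1219 FPKM in vehicle glands, with Krt7 at 10.3, 6.41 and 4.52 FPKM in T2DM glands against 3.14, 2.58 and 2.65 FPKM in vehicle glands. None of the duct markers was listed at 0 in all libraries. Their list includes Krt8, at 329, 293 and 267 FPKM in T2DM glands and 223, 237 and 262 FPKM in vehicle glands. It also includes Krt18, at 521, 458 and 423 FPKM in T2DM glands and 332, 296 and 326 FPKM in vehicle glands. Whether the listed genes mark ducts alone was not tested, nor was their part in the annexin differences. Myoepithelial markers were also higher in 4 of 9 genes (summed level 212 to 254 FPKM in T2DM glands and 160 to 178 FPKM in vehicle glands), and in 1 of 9 after scaling. Of Schwann and neural markers, 2 of 5 were higher (Sox10, log2 fold change 1.04, and Mbp, 0.70), of T and B cell markers 2 of 10, of macrophage and monocyte markers 2 of 13, of endothelial markers 0 of 8 and of fibroblast markers 0 of 8. Over all genes tested, 10.5% were called higher. After scaling, 2 Schwann and neural, 1 T and B cell and 2 macrophage and monocyte markers were called higher, against 3.93% of all genes tested. The annexin count was 2, 2 and 5 without T2DM replicates 1, 2 and 3, and 1, 1 and 0 without Vehicle replicates 1, 2 and 3. Of these, Anxa4 lost its call without Vehicle replicate 3 (adjusted p = 0.0553), and Anxa1 lost its call without each of the vehicle libraries in turn (adjusted p 0.0511 to 0.0812).

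**Figure D3:**
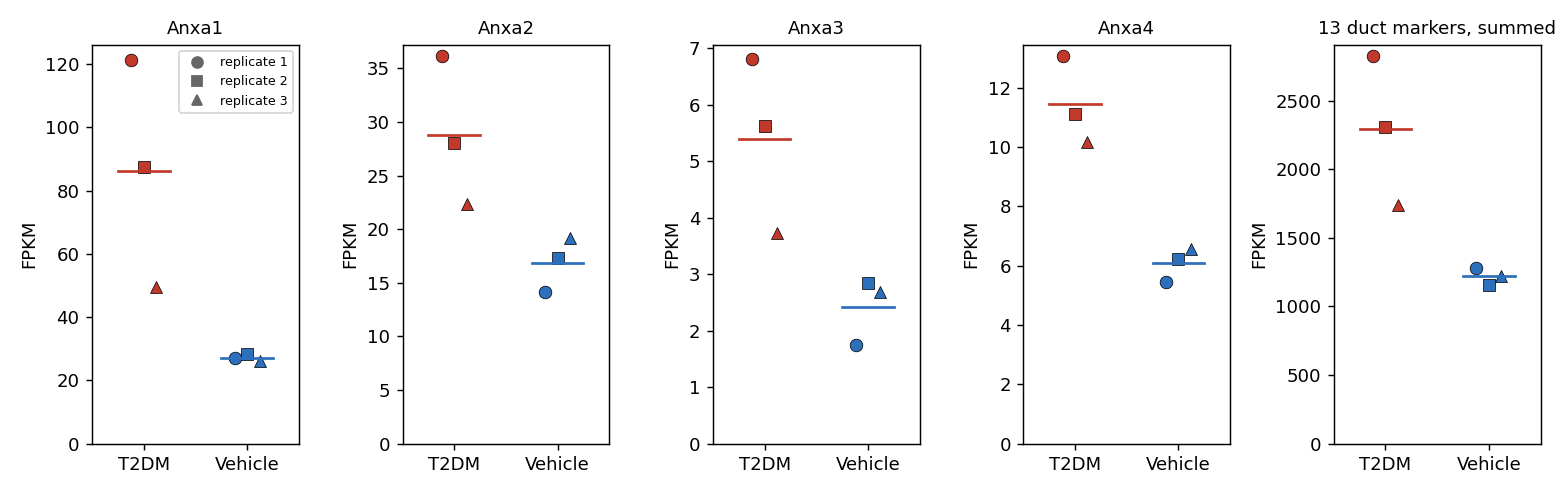
FPKM of Anxa1, Anxa2, Anxa3 and Anxa4 and the summed FPKM of 13 duct markers, with 3 T2DM libraries (red) left of 3 vehicle libraries (blue), symbols for the replicate number and bars for the group mean. In each panel T2DM replicate 1 is highest and T2DM replicate 3 lowest among the T2DM libraries, and all T2DM libraries lie above all vehicle libraries.

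S100 genes were mostly higher on average in T2DM glands, but only 1 of the 11 tested was called (9.09%, against 10.5% of all genes tested). S100a11, which encodes a keratinocyte and epithelial S100 protein that binds Anxa1, held 66.7% to 74.8% of the summed S100 FPKM in T2DM glands and 68.7% to 71.8% in vehicle glands. It had 477, 372 and 386 FPKM in T2DM glands and 258, 258 and 304 FPKM in vehicle glands, without overlap (log2 fold change 0.59, SE 0.12, adjusted p = 0.0294). After scaling the value was 0.38 with an adjusted p of 0.0843, and the call was also lost without T2DM replicate 1 (adjusted p = 0.0703) and without each of the vehicle libraries in turn (0.0631 to 0.0829). The summed S100 level was 660, 558 and 516 FPKM in T2DM glands and 359, 371 and 442 FPKM in vehicle glands. At an unadjusted p under 0.05, 8 of the 11 genes were higher and 0 lower, against 28.5% and 4.57% of all genes tested. All T2DM libraries lay above all vehicle libraries in 4 of the 11, against 33.8% of all genes tested. Without T2DM replicate 3 the family count was 4, since S100a1, S100a6 and S100a13 passed the test as well.

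S100a1, the S100 protein best known as a regulator of SERCA and ryanodine receptors in muscle, was the second most abundant, with 50.2, 46.8 and 24.9 FPKM in T2DM glands against 24.5, 19.3 and 27.1 FPKM in vehicle glands. T2DM replicate 3 lay within the vehicle range, and the log2 fold change of 0.71 (SE 0.26) had an adjusted p of 0.104. Without that library it was 1.02 (adjusted p = 0.0175). S100a13, the divergent neighbour of S100a1 on chromosome 3, ranked the libraries of each group in the same order as S100a1, with 11.3, 10.3 and 4.62 FPKM in T2DM glands and 6.20, 4.85 and 7.17 FPKM in vehicle glands. The ratio of S100a1 to S100a13 was 4.43, 4.55 and 5.39 in T2DM glands and 3.95, 3.98 and 3.78 in vehicle glands, a narrower range than that of either gene. S100a14, S100a16, S100a4, S100a6, S100a8 and S100a9 lie in the same stretch of chromosome 3 (GRCm38, chr3:90511034-90695721), whereas S100a11 (chr3:93520488-93526287) and S100a10 (chr3:93555080-93564643) lie further along and are 28792 bases apart.

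S100a4, S100a6 and S100a10 were at similar levels and had no call. S100a6 had 37.4, 36.5 and 25.7 FPKM in T2DM glands against 17.3, 21.8 and 26.3 FPKM in vehicle glands (log2 fold change 0.59, SE 0.19, adjusted p = 0.0766). S100a10, the partner of Anxa2, had 31.9, 30.5 and 27.2 FPKM in T2DM glands against 16.3, 22.8 and 28.1 FPKM in vehicle glands (log2 fold change 0.43, SE 0.18, adjusted p = 0.141). The ratio of S100a10 to Anxa2 was 0.883, 1.09 and 1.22 in T2DM glands and 1.15, 1.32 and 1.47 in vehicle glands. S100a4, known from motile mesenchymal and myeloid cells, had 27.7, 33.0 and 28.0 FPKM in T2DM glands against 20.1, 26.5 and 32.7 FPKM in vehicle glands. Its log2 fold change of 0.18 (95% CI -0.21 to 0.57, adjusted p = 0.482) was -0.02 after scaling, and its exons overlap those of Gm42674 on the same strand. Of the tested S100 genes, 7 were lowest within their group in Vehicle replicate 1, as were 26 of all 54 tested members. The share over all genes was not determined. Vehicle replicate 1 also had the lowest macrophage markers, and the part of these cells in the S100 levels was not tested.

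S100a8 and S100a9 together form calprotectin, which neutrophils and monocytes release. S100a8 was low, with 2.36, 4.98 and 1.28 FPKM in T2DM glands and 1.64 and 0.907 FPKM in Vehicle replicates 2 and 3, and it was listed at 0 in Vehicle replicate 1. S100a9 had 3.73, 5.37 and 2.55 FPKM in T2DM glands against 1.90, 2.51 and 2.62 FPKM in vehicle glands. Both were highest in T2DM replicate 2, both overlapped between the groups, and neither passed the test (adjusted p = 0.13 for S100a8 and 0.134 for S100a9). Of 12 neutrophil markers, 4 were in the table and 3 were tested, of which 0 were called in limma. The other 8 were not analysed here. Retnlg had 0.410, 1.71 and 0.297 FPKM in T2DM glands and 1.37 and 1.07 FPKM in Vehicle replicates 2 and 3, and was listed at 0 in Vehicle replicate 1. Csf3r averaged 1.01 ± 0.109 FPKM in T2DM glands and 1.28 ± 0.254 FPKM in vehicle glands (SD, n = 3 each). Lcn2, which epithelium also makes, had 46.7, 86.1 and 26.4 FPKM in T2DM glands against 19.7 to 23.9 FPKM in vehicle glands, and like S100a8 and S100a9 was highest in T2DM replicate 2. Of 13 macrophage and monocyte rows, 2 were called higher (10.5% of all genes tested) and kept their calls after scaling (3.93% of all genes tested). Cd14 had 31.7, 22.5 and 13.9 FPKM in T2DM glands against 3.68, 5.46 and 6.49 FPKM in vehicle glands (log2 fold change 1.89, adjusted p = 0.0175), and Ccr2 had 6.41, 6.77 and 4.85 FPKM in T2DM glands against 3.26, 3.53 and 2.97 FPKM in vehicle glands (0.71, adjusted p = 0.0224). The summed rows were 419 to 465 FPKM in T2DM glands and 271 to 551 FPKM in vehicle glands, and the part of these cells in S100a8 and S100a9 was not tested. S100a16 had 14.2, 15.03 and 13.01 FPKM in T2DM glands against 12.9, 11.2 and 11.8 FPKM in vehicle glands (adjusted p = 0.154). S100a14 and S100b were under 1 FPKM in every library, and S100pbp, a nuclear binding partner of S100P, had an adjusted p of 0.127.

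**Figure D4:**
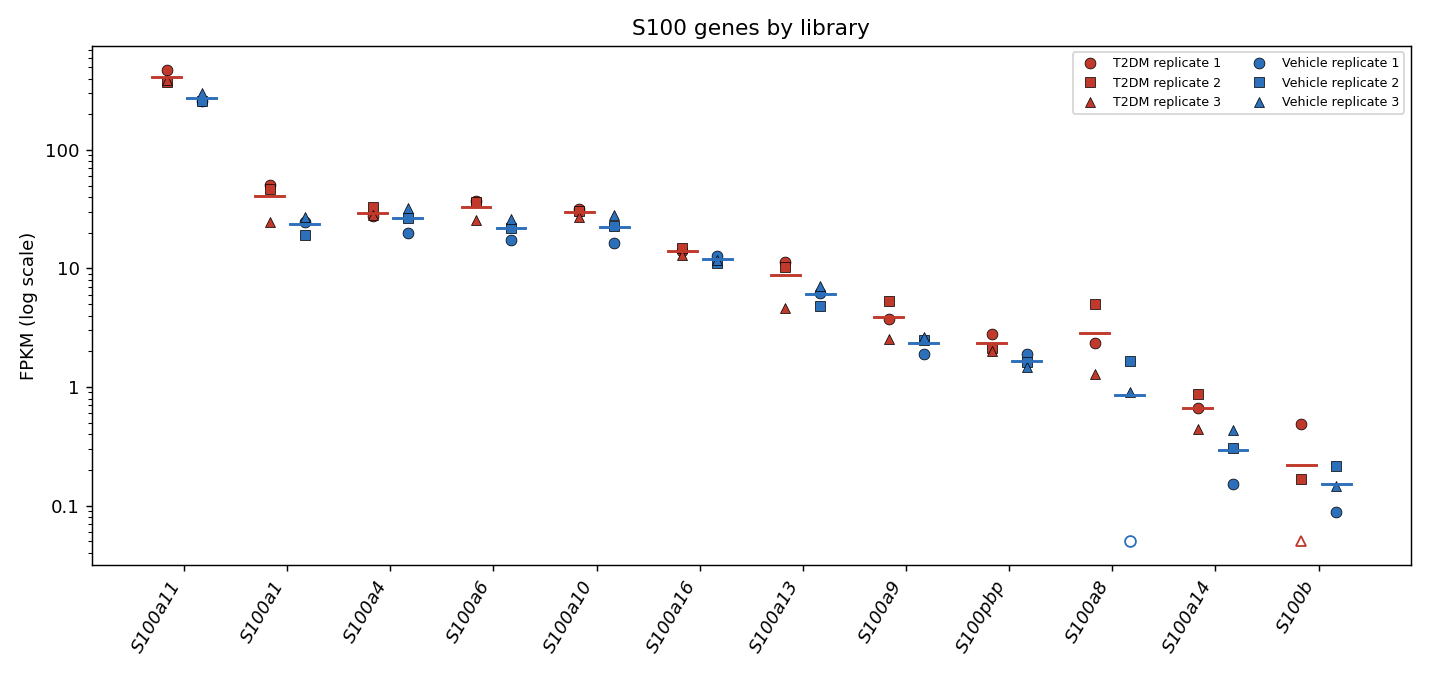
FPKM on a log scale of the 12 S100 names, with 3 T2DM libraries (red, left) and 3 vehicle libraries (blue, right), symbols for the replicate number and bars for the group mean; hollow symbols at the foot of the axis stand for values listed at 0. S100a11 lies above the other genes in all 6 libraries and is the 1 gene called. T2DM replicate 3 falls within the vehicle symbols for S100a1, S100a4, S100a6, S100a8, S100a9 and S100a10 and below them for S100a13 and S100b.

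Other genes of the pathway were taken from 7 lists of receptors, store proteins, regulators, mitochondrial transporters, effectors and binding partners. Of 78 tested, 11 were higher and 1 was lower (10.5% and 1.7% of all genes tested), with a median log2 fold change of 0.26. After scaling, 5 were higher and 6 lower (3.93% and 3.96% of all genes tested). Of 7 tested calcium-activated channels and exchangers, 3 were higher. Ano1, the calcium-activated chloride channel, had 22.4, 25.4 and 19.7 FPKM in T2DM glands and 11.8, 9.77 and 9.10 FPKM in vehicle glands (log2 fold change 1.07, SE 0.13, adjusted p = 0.0123). Kcnn4, a calcium-activated potassium channel, had 16.9, 20.4 and 21.8 FPKM in T2DM glands against 13.3, 10.97 and 7.57 FPKM in vehicle glands (log2 fold change 0.86, adjusted p = 0.0324). Ano10, a scramblase, had a log2 fold change of 0.52 (adjusted p = 0.03). The potassium channel Kcnma1 averaged 4.13 ± 0.909 FPKM in T2DM glands and 4.08 ± 0.329 FPKM in vehicle glands (SD, n = 3 each), with an adjusted p of 0.997 in limma, and Trpm4 had an adjusted p of 0.357. The muscarinic receptor Chrm3, which starts the cascade, had 8.48, 5.86 and 7.16 FPKM in T2DM glands against 5.43, 5.22 and 4.77 FPKM in vehicle glands and did not pass the test (adjusted p = 0.0822).

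Of 12 tested receptor and G protein genes, 3 regulators of Gq signalling were higher, where 10.5% of all genes tested were called higher. Rgs5, a known pericyte transcript, had 16.1, 9.97 and 10.04 FPKM in T2DM glands and 3.21, 3.35 and 4.06 FPKM in vehicle glands (log2 fold change 1.49, SE 0.18, adjusted p = 0.0123). Rgs2 and Rgs4, which like Rgs5 speed the shut-off of G proteins, had log2 fold changes of 0.81 and 1.19. Of 10 store proteins, Rcn2 was higher (0.43, adjusted p = 0.0452). The luminal calcium buffer Calr was lower, with 313, 289 and 325 FPKM in T2DM glands and 445, 412 and 412 FPKM in vehicle glands (log2 fold change -0.45, SE 0.09, adjusted p = 0.0241). After scaling, 4 of the 10 store proteins were lower (3.96% of all genes tested). Of 11 mitochondrial transport genes, Slc8b1, which extrudes calcium from mitochondria, was higher (0.59, adjusted p = 0.0208). Of the binding partners, Ahnak, a scaffold that S100a10 and Anxa2 bind, was higher with 24.2, 15.3 and 15.5 FPKM in T2DM glands against 8.33, 10.8 and 9.59 FPKM in vehicle glands (log2 fold change 0.85, SE 0.18, adjusted p = 0.0307). The calcium-dependent phospholipase Pla2g4a (0.61) and the protease Capn2 (0.36) were also higher. In the lists of store entry and IP3 regulators (15 tested) and of calcineurin, NFAT and protein kinase C genes (14 tested), 0 were called in limma. After scaling, Saraf (-0.36, adjusted p = 0.0452) and Selenok (-0.41, adjusted p = 0.0473) of the store entry list were called lower. Without single libraries the number of calls among the 78 was 2, 8 and 11 without T2DM replicates 1, 2 and 3, and 6, 2 and 0 without Vehicle replicates 1, 2 and 3.

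All 57 genes were matched in GENCODE M21, and 55 had the same start and end there as in the deposited table. Exons of 11 members overlapped those of a gene on the opposite strand by at least 50 bases, among them the called genes Anxa2, Anxa4 and Anxa11. Anxa3 overlapped Gm42603 on the same strand. The library kit marks the strand, but whether the fragments were counted by strand is not given in the sources used here, so reads of these genes and their overlapping partners may not be told apart.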

How the data were processed

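Poly(A) RNA of mouse LG was sequenced in 3 T2DM and 3 vehicle libraries, grouped by their labels. The authors deposited 1 table of gene-level FPKM, made with cutadapt, HISAT2 on GRCm38, StringTie and Ballgown according to the study's methods, whereas the submitters' processing notes name hg19 and GRCh37. The coordinates of 55 of 57 members match GENCODE M21 (GRCm38). FPKM hold no read numbers, so depth is unknown and no counting interval can be given. In the copy used, 1 line was empty.

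The 12135 genes whose mean reached 0.5 FPKM in T2DM or vehicle glands were tested on log2(FPKM + 1) with limma 3.58.1 in R 4.3.3 (empirical Bayes with trend, two-sided, Benjamini-Hochberg adjustment over all genes). The script was tested on simulated data. Alternatives were other pseudocounts, filters and scalings, no moderation or trend, an unadjusted p with a fold of 1.5, a replicate block and leaving out libraries. The members and lists were chosen with earlier results of these data known. Values are given in full for members past the test and the 3 most abundant of each family, and for up to 4 called genes of each other list; values of other members that are printed were chosen after they were seen. 1 member that is included in the counts is not reported here by itself. Motif counts used Python 3.11.15.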

Additional observations from a re-analysis of the deposited data

How the results depend on the processing

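No member was called lower under any alternative run. Of the 17 alternatives, 13 members were called higher with pseudocounts of 0.1 and 0.5 and with a mean filter of 1 FPKM, 11 with no filter and 12 without trend, and these were among the original 13. Scaling by the median of ratios gave 4 members, with 0 of the S100 genes, 2 annexins, 0 phospholipases C and 0 calmodulin and kinase genes. Scaling to the sum without the 10 most abundant genes gave 29 members, with 6 S100 genes, 5 store release and pump genes, 2 entry names, 4 phospholipases C, 4 calmodulin and kinase genes and 38 other pathway genes. That scaling also called 3345 of the 12135 genes tested higher, against 1271 in the main fit. It moved the median log2 fold change of all genes from 0.16 to 0.25. A linear model without moderation called 0 members, 0 in each family, 0 other pathway genes and 0 genes of the whole table (23 members at an unadjusted p under 0.05, smallest adjusted p 0.0895). An unadjusted p with a fold of 1.5 gave 14 members (9 of the original 13), with 4 S100 genes and 1 phospholipase C. Over the whole table it gave 881 genes higher and 145 lower. With no filter, 0 calmodulin and kinase genes were called.

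The replicate block gave 6 members (5 of the original 13, with Plcg1 added), with 0 S100 genes, 2 annexins, 1 phospholipase C and 3 other pathway genes, and 551 genes higher and 98 lower over the whole table. The numbers did not pair the libraries: deviations of same-numbered libraries from their group means correlated at 0.03, 0.02 and -0.00, and T2DM replicate 2 correlated best with Vehicle replicate 3 (0.04). Leaving out 1 library gave 0 to 13 members, 0 to 4 S100 genes, 0 to 5 annexins, 0 to 2 store release and pump genes, 0 to 1 entry names, 0 to 2 phospholipases C, 0 to 1 calmodulin and kinase genes and 0 to 11 other pathway genes. Leaving out Vehicle replicate 1 and T2DM replicate 3 together, an alternative chosen after seeing the data, gave 6 members (4 of the original 13), 0 store release and pump genes, 0 phospholipases C and 5 other pathway genes.

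Some small log2 fold changes changed sign. Scaling by the median of ratios gave -0.018 for S100a4, -0.069 for Atp2a2, -0.056 for Stim2 and -0.15 for Calm3. Calm3 was -0.031 to 0.11 with 1 library left out and -0.027 with both left out. The causes of these changes were not tested.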
